A study of Bombus terrestris with 8 samples.

Results

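The change in open chromatin between larva and pupa was followed in workers of the buff-tailed bumblebee, *Bombus terrestris*. ATAC-seq peak lists of 2 pupa samples were set against those of 2 larva samples. Intervals of the 4 lists that overlapped by at least 1 bp were merged into 45033 regions, and each region was classed by the lists that held it. A gained region had an interval in both pupa lists and in neither larva list, a lost region had one in both larva lists and in neither pupa list, and a kept region had one in all 4 lists. These 3 classes held 23354 regions (51.9%), namely 14174 gained, 590 lost and 8590 kept. The other 21679 regions were called in some other combination of lists and were termed mixed. Over all 8 samples of the series, which also covers egg and adult, the lists merged into 63245 regions.

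Each sample was whole-body tissue without any genetic change or treatment, frozen after collection from several commercial colonies. Pupae were taken after the eyes had darkened and before wings had formed, and larvae were recognised by their curled body. Pupa and larva samples were pools of whole animals with the volume of a single adult bee, so a replicate is a pool, and how many animals each pool held was not given in the sources used here. Egg samples were pools in the same way, while an adult sample was an individual worker.

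In ATAC-seq, a transposase inserts sequencing adaptors into DNA that is not wrapped in nucleosomes, and the peak caller marks stretches where insertions are denser than in their surroundings. Such stretches include promoters, enhancers and other regulatory elements. In insects with complete metamorphosis, much larval tissue is broken down in the pupa while legs, wings, eyes and the adult nervous system are built, and pulses of the steroid hormone ecdysone direct this programme. In *Drosophila melanogaster*, ecdysone-induced transcription factors are known to open and close regulatory elements in sequence during it. In whole-body samples, a region that opens within cells and a larger share of cells in which it was already open cannot be told apart.

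The pupa lists were longer than the larva lists. They held 33149 and 37502 distinct intervals in pupae 1 and 2, against 17073 and 12331 in larvae 1 and 2. The mean was 35325.5 ± 3078 in pupae and 14702 ± 3353 in larvae (SD, n = 2 each), and the lists did not overlap in length. The difference of 20623.5 intervals had p = 0.333 in an exact two-sided permutation test, the smallest value that the 6 arrangements of 2 against 2 samples can give. The caller's threshold was the same in every list, a q-value of 0.05, so an absent interval means that this threshold was not met in that library and not that the chromatin was closed. Contigs that the assembly has not placed on a chromosome held 20.1% and 17.1% of the intervals in pupae and 31.1% and 36.1% in larvae. On unplaced contigs, pupa 2 alone lacked an interval at 613 regions that the other 3 samples held. Larva 2 alone lacked one at 465 such regions, larva 1 at 76 and pupa 1 at 32. Pupa 2 stood apart in those that began at the first base of their contig, with 192 against 16, 1 and 10. Placed chromosomes and unplaced contigs are therefore reported apart, and counts without pupa 2 are given beside them.

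On the 18 placed chromosomes, gained regions far outnumbered lost ones. Of 36761 placed regions, 12720 (34.6%) were gained, 337 (0.917%) were lost and 5438 (14.8%) were kept, which gave 37.7 gained regions for each lost one. The gained regions covered 5.80 Mb, the lost ones 0.137 Mb and the kept ones 4.37 Mb. Each sample was left out in turn. With larva 2, the shortest list, left out, 1584 regions were lost, 8740 were kept and 8.41 were gained per lost region. With larva 1 left out, 951 were lost and 16.9 were gained per lost region. Leaving out pupa 1 gave 21134 gained regions, with 492 lost. Leaving out pupa 2 gave 16352 gained, 484 lost and 5660 kept regions, or 33.8 gained per lost region. With only 2 samples a stage and classes made of regions within the same libraries, no test was applied to these counts.

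**Figure D1:**
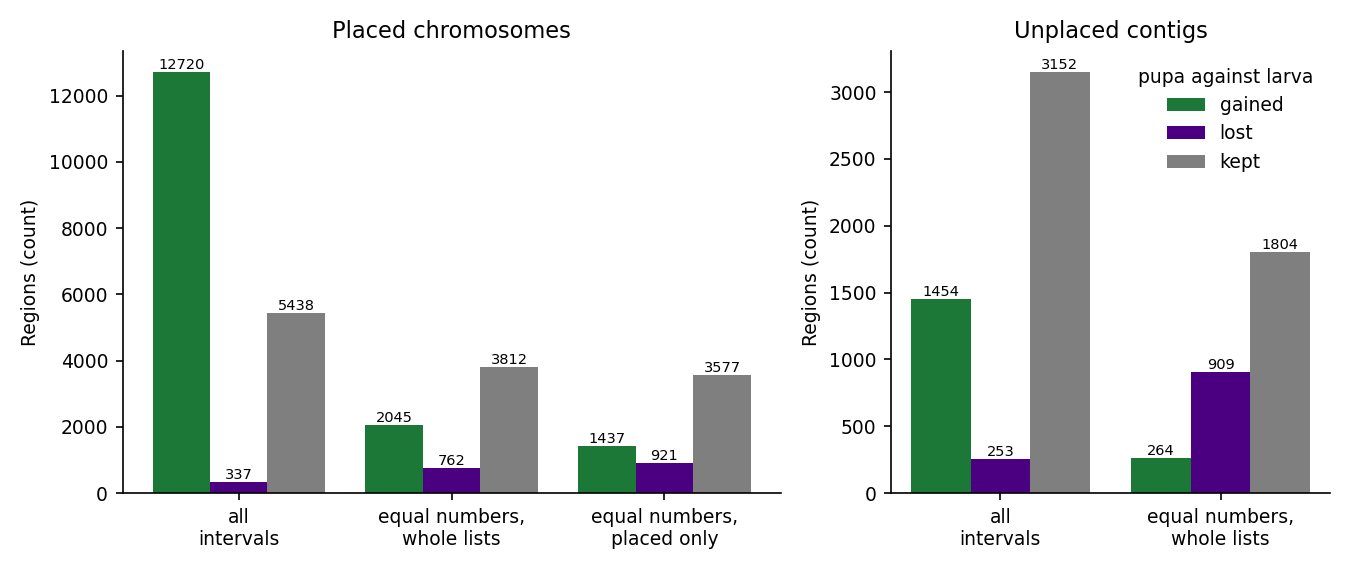
Number of gained, lost and kept regions (bars, regions on the y axis) on placed chromosomes and on unplaced contigs, from all intervals, from the 12331 strongest intervals of each list (equal numbers, whole lists) and from the 7875 strongest placed intervals of each list (equal numbers, placed only). The gained bar is 12720 for all intervals and 1437 for equal placed numbers, the lost bar is 337 and 921 in the same settings, and on unplaced contigs the equal-number setting has more lost than gained regions.

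Regions called at a single stage were weak and narrow next to kept regions. The fold enrichment of a peak is its signal over the local background of its own library, and the best peak of a region was used. On placed chromosomes, gained regions had a median fold enrichment of 3.18 in pupa 1 and 3.12 in pupa 2, with maxima of 12.0 and 10.2. Lost regions had medians of 3.11 in larva 1 and 3.24 in larva 2, with maxima of 6.82 and 5.96. Kept regions had medians of 5.68 and 5.05 in pupae, against 4.78 and 4.24 in larvae. Gained and lost medians were thus similar as raw values, but fold values are not on a scale shared between libraries. The median over all placed intervals was 3.41 and 3.07 in pupae 1 and 2, against 3.63 and 3.74 in larvae 1 and 2. Lost regions had medians below this level in both larvae. Gained regions had a median below it in pupa 1 and slightly above it in pupa 2. The strongest gained regions lay above the strongest lost ones, but these maxima are over 12720 gained and 337 lost regions. The median width was 412 bp for gained, 388 bp for lost and 734 bp for kept regions. Part of the difference in strength and width follows from how the classes were formed. A kept region passed the threshold in 4 lists, and its width joins their intervals. Single intervals of placed kept regions had median widths of 568 and 691 bp in pupae, against 418 and 370 bp in larvae.

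The statistical support of the peaks separated gained from lost regions more than their fold enrichment did. A −log10 p of at least 10 was reached by 51.4% of placed gained regions in pupa 1 and 69.5% in pupa 2, against 25.8% of lost regions in larva 1 and 9.20% in larva 2. At kept regions the shares were 92.8% and 94.7% in pupae, against 76.5% and 51.6% in larvae. The p-value depends on the number of reads as well as on enrichment, and how many reads stand behind a peak is unknown, since the lists do not give them. At the other end, the weakest placed gained region had a −log10 p of 2.48 in pupa 1 and 2.40 in pupa 2, and the weakest lost region had 2.87 in larva 1 and 2.92 in larva 2.

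**Figure D2:**
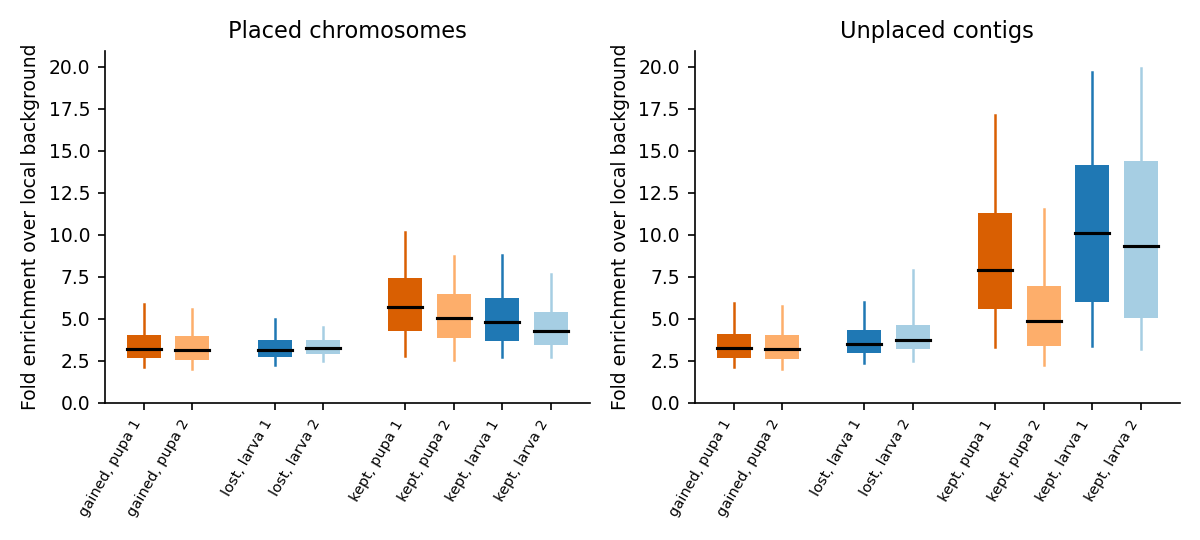
Fold enrichment over local background (y axis) at gained, lost and kept regions in each sample, on placed chromosomes and on unplaced contigs. Boxes span the quartiles, black lines are medians and thin lines run from the 5th to the 95th percentile. Gained and lost boxes sit together near 3 on placed chromosomes, below the kept boxes.

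The comparison was repeated with lists of equal length, taking from each list its 12331 intervals with the highest −log10 p, which is the whole of the larva 2 list. The excess of gained over lost regions on placed chromosomes became smaller but kept its direction. Of 14697 placed regions, 2045 (13.9%) were gained, 762 (5.18%) were lost and 3812 were kept, or 2.68 gained per lost region. When the lists were cut to the same number of placed intervals, 7875, the classes held 1437 gained (10.7%), 921 lost (6.87%) and 3577 kept of 13409 regions, or 1.56 gained per lost region. With the 5000 strongest intervals of each whole list the placed ratio was 6.0. The cuts of whole lists did not make the numbers of placed intervals equal. Of the top 5000, 60.4% and 76.4% were placed in pupae 1 and 2, against 43.8% and 42.4% in larvae 1 and 2. Of the top 12331, 71.3% and 79.2% were placed in pupae, against 63.9% in each larva. Across placed-only lists of 1000 to 7875 intervals it lay between 1.12 and 1.56, and gained regions were the larger class at every length tried.

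**Figure D3:**
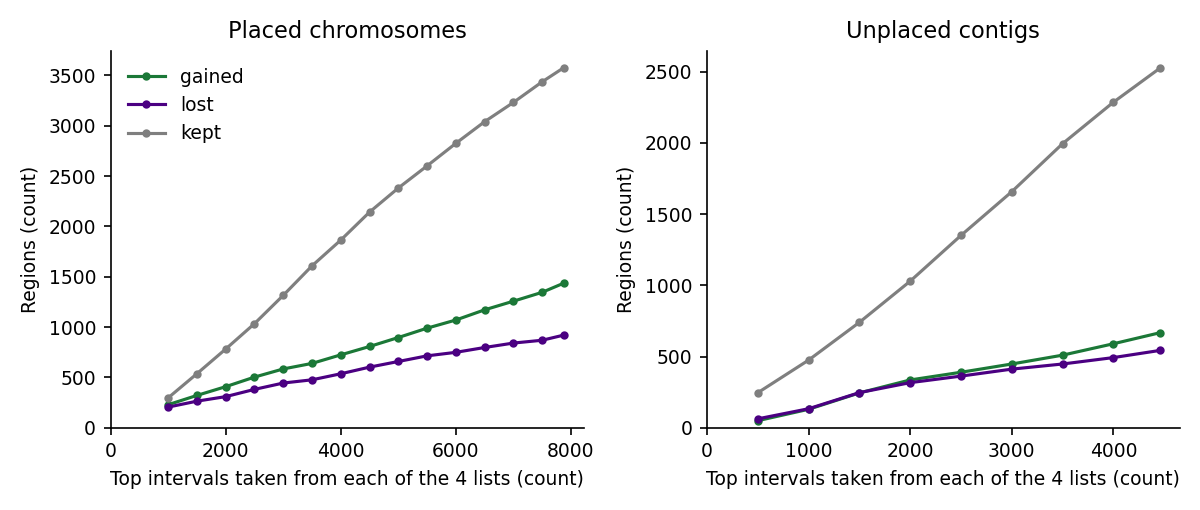
Number of gained, lost and kept regions (y axis) when the same number of top intervals by −log10 p (x axis) was taken from each of the 4 lists, on placed chromosomes and on unplaced contigs separately. The gained line lies above the lost line at every length on placed chromosomes, where it ends at 1437 against 921, while on unplaced contigs it lies below the lost line up to 1500 intervals and ends at 667 against 543.

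Equal numbers put the cut at different strengths in the libraries, and this bears on what lost means in that setting. The last placed interval taken had a −log10 p of 20.7 in pupa 1 and 29.9 in pupa 2, against 7.08 in larva 1 and 2.85 in larva 2. Of the 921 regions lost in the placed-only lists, 591 (64.2%) were kept and 169 were lost in the full lists. The larva peaks at those 591 regions were thus met by pupa peaks that lay below the cut. Of the 1437 gained regions, 1108 (77.1%) were gained in the full lists as well and the remaining 329 were mixed.

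A stricter pair of sets was formed by the regions with the same class in the full lists and in the equal-number whole lists. On placed chromosomes 1619 regions were gained in both, 12.7% of all gained regions, and 169 were lost in both, 50.1% of all lost regions. The 1619 had median fold enrichments of 5.38 and 5.02 in pupae 1 and 2 and a median width of 554 bp. The 169 had medians of 3.72 and 3.55 in larvae 1 and 2 and a median width of 395 bp. These levels follow from the selection, since the last interval taken had a −log10 p of 18.5 and 24.6 in pupae, against 7.08 and 2.85 in larvae, and are not a comparison of gained with lost regions.

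The 10 strongest gained regions of the placed chromosomes, ordered by the weaker of their pupa values, lay on 7 chromosomes and were between 455 and 972 bp wide. All 10 were gained by equal numbers too. Their fold enrichment ran from 8.67 to 11.1 in pupa 1 and from 8.64 to 10.03 in pupa 2, and no larva list had an interval at any of them. The first, NC_015771.1:12227893-12228510 on the Bter_1.0 assembly, had 10.3 in pupa 1 and 9.93 in pupa 2 and was also called in both egg and both adult lists. NC_015772.1:4725241-4725864 had 9.13 and 9.66 in pupae and was called in 1 egg and both adult lists. NC_015765.1:1131614-1132579 had 9.15 and 9.10 in pupae and was called in all 4 egg and adult lists. None of the 10 was particular to the pupa among the 4 stages, since each was called in at least 1 egg or adult list.

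Further strong gained regions differed in which other stages shared them. NC_015771.1:13078221-13078818 had 8.67 in pupa 1 and 9.81 in pupa 2 and was called in both adult lists and no egg list. NC_015774.1:970488-971000 had 9.04 and 9.91 in pupae and was called in 1 egg list and no adult list. NC_015766.1:10331783-10332459 had 9.05 and 10.03 in pupae and was called in 1 egg and both adult lists. The widest of the 10, NC_015777.1:3452849-3453820, had 8.77 and 8.73 in pupae and was called in both egg and both adult lists. Gene positions of this assembly were not used here, so no region is assigned to a gene, an exon or a promoter.

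The 10 strongest lost regions had lower fold enrichment than the 10 strongest gained regions. They were the top of 337 regions and the gained ones the top of 12720, in other libraries, so the extremes are not like for like. Their fold enrichment ran from 4.32 to 6.51 in larva 1 and from 4.30 to 5.79 in larva 2, without an interval in either pupa list. NC_015771.1:8500476-8500921 came first, with 6.51 in larva 1 and 5.54 in larva 2, and was called in 1 egg and both adult lists. NC_015773.1:5775456-5775941 had 6.13 and 5.42 in larvae and was called in all 4 egg and adult lists. NC_015764.1 held 3 of the 10, at 11619102-11619776 with 5.26 and 5.79, at 14309522-14309864 with 4.86 and 5.04, and at 10936810-10937127 with 4.45 and 4.86 in larvae. The last of these was called in both egg lists and no adult list, the pattern of a region shared by the stages before the pupa. NC_015767.1:8718815-8719157, with 4.99 and 4.30 in larvae, had the same pattern. All 10 were lost by equal numbers too, and all 10 were called in at least 1 egg list.

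The egg and adult lists were not used to class the regions and show where else in development they were called. Of placed gained regions, 47.8% and 35.2% overlapped an interval of egg 1 and egg 2, and 37.9% and 43.4% one of adult 1 and adult 2. Over all placed regions these shares were 50.7%, 47.5%, 43.8% and 48.6%, above the gained regions in each of the 4 lists. All placed regions include the 5438 kept ones, which raise these shares, and gained regions were not compared with the remaining regions alone. The order therefore does not show that gained regions were called less often than other regions that were not kept. Lost regions overlapped egg intervals in 54.0% and 76.6% and adult intervals in 49.3% and 54.6% of cases. Kept regions did so in 96.7% and 98.0% for egg and in 94.2% and 95.1% for adult. On placed chromosomes the share of lost regions was thus above that of gained regions in each of the 4 lists, with the widest gap in egg 2. On unplaced contigs this held in egg 1 only, with 52.1% of gained and 60.9% of lost regions. The unplaced shares of gained and lost regions were 40.6% and 40.3% in egg 2, 40.5% and 37.5% in adult 1, and 45.5% and 45.5% in adult 2. The egg replicates changed order between the placed classes, with egg 1 above egg 2 at gained regions and below it at lost regions.

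Gained regions were spread over every pattern of the other stages. Of the 12720, 3802 (29.9%) were in no egg or adult list and so were pupal among these 8 samples. Over all placed regions, 29.4% were in no egg or adult list. A further 1876 (14.7%) were in all 4 lists, so that the larva was the stage without a call. Over all placed regions, 9982 (27.2%) were in all 4 lists, and 4900 of these were kept regions. Another 951 were in both adult lists and no egg list, and 853 were in both egg lists and no adult list. The pupal ones were the weakest, with median fold enrichments of 2.98 and 2.93 in pupae, against 3.75 and 3.85 for those in all 4 lists. Of the 3802, 216 (5.68%) were gained by equal numbers too, against 530 (28.3%) of the 1876. Of the 337 lost regions, 47 (13.9%) were in both egg lists and no adult list and 6 (1.78%) in both adult lists and no egg list, while 84 (24.9%) were in all 4 and 31 in none. Over all placed regions the egg pattern held for 5.77% and the adult pattern for 4.50%. The shares over all placed regions include the kept ones, of which 0.294% were in no egg or adult list and 90.1% in all 4. Setting a class beside these shares is therefore not a comparison with the regions that were not kept. Kept regions were called throughout development, with 4900 of 5438 (90.1%) in all 8 lists.

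**Figure D4:**
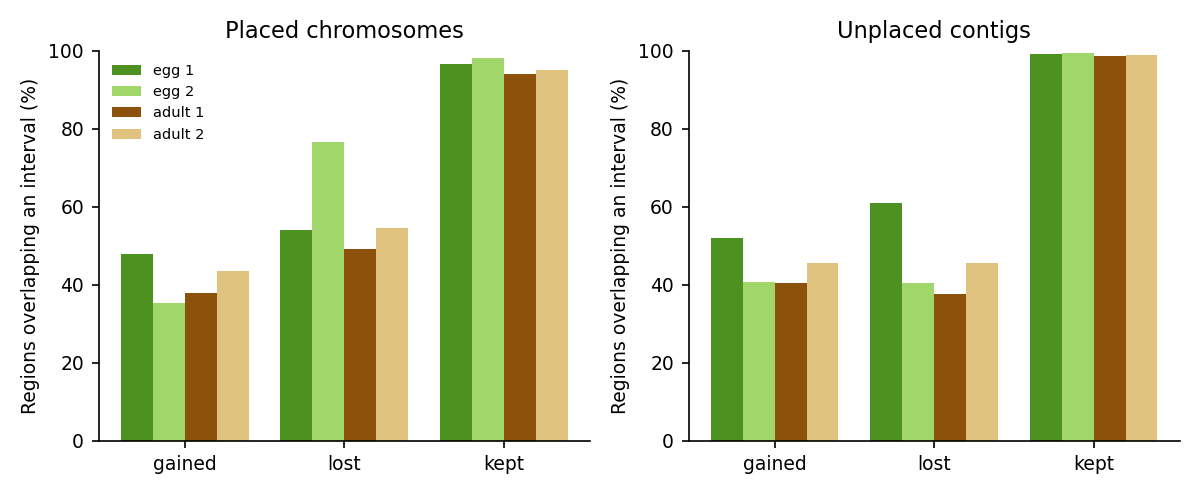
Share of gained, lost and kept regions (y axis, percent) that overlapped an interval of each egg and adult sample, on placed chromosomes and on unplaced contigs. On placed chromosomes the lost bars lie above the gained bars for each of the 4 samples, with 76.6% against 54.0% for the egg samples at lost regions, and kept bars lie above 90%.

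Gained regions lay along every placed chromosome. Their share of the regions ran from 29.1% on NC_015779.1 to 36.6% on NC_015774.1, and their density from 46.3 to 70.1 per Mb up to the last region of the chromosome. Gained regions outnumbered lost ones on 18 of 18 chromosomes in the full lists. In the placed-only lists of equal length they did so on 17 of 18, and NC_015762.1 had 61 gained and 78 lost regions. The chromosomes with the fewest regions, NC_015777.1, NC_015778.1 and NC_015779.1, had the lowest numbers of gained per kept region, with 1.77 on each, against a median of 2.32 over the 18.

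Most gained regions lay apart from the kept regions. The median distance to the nearest kept region was 13.3 kb for gained and 11.1 kb for lost regions, while a kept region lay 7.64 kb from the next kept one. Within 1 kb of a kept region lay 6.0% of gained, 7.42% of lost and 15.6% of kept regions. Mixed regions had a median of 12.1 kb and 8.58% within 1 kb. Gained regions within 1 kb of a kept region were therefore a small part of the class. Regions called in both pupae and a single larva, 3302 with larva 1 and 597 with larva 2, did not count as kept here. A flank that overlapped a kept peak was merged into it.

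In windows of 100 kb, 2159 of which held a region, the median number of gained regions was 5 and the highest was 23. Lost regions were sparse, and 1864 windows (86.3%) held none. The windows with 23 and 22 gained regions stood next to each other on NC_015764.1, in a stretch chosen after its values were seen, and 1 window of NC_015774.1 also held 22. Between 9600001 and 9800000 it held 45 gained, 1 lost and 2 kept regions and 25 mixed ones. The pupa fold enrichment of the 45 ran from 2.07 to 9.70 in pupa 1 and from 1.52 to 8.43 in pupa 2. Of the 45, 16 were in no egg or adult list, 10 were in both egg lists and 9 in both adult lists. The strongest there by the weaker pupa value was NC_015764.1:9729301-9730021, with 9.44 in pupa 1 and 8.43 in pupa 2. In the placed-only lists of equal length, the part from 9600001 to 9700000 held 2 gained and 1 lost region and the part from 9700001 to 9800000 held 7 gained and 0 lost. Of these 7, NC_015764.1:9720156-9720653 was mixed in the full lists, with 13.1 and 9.54 in pupae, against 2.29 in larva 1 and no interval in larva 2.

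The opposite case, also chosen after its values were seen, was the window of NC_015774.1 from 6500001 to 6600000, with 6 lost and 0 gained regions in the placed-only lists of equal length. These 6 lay between 6511382 and 6530270. In the full lists 3 of the 6 were kept, 2 were mixed and 1 was lost, and the window as a whole had 4 gained, 1 lost and 4 kept regions. The kept region at NC_015774.1:6511382-6512098 had fold enrichments of 1.78 and 1.63 in pupae, against 3.69 and 3.13 in larvae. The kept region at NC_015774.1:6527814-6528720 had 2.51 and 3.05 in pupae, against 4.29 and 3.87 in larvae. Between them, NC_015774.1:6512170-6512563 was lost in the full lists as well, with 2.98 and 3.73 in larvae 1 and 2.

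Kept regions were compared by their rank within each library, which does not need a scale shared between libraries. The best fold enrichment of each of the 8590 kept regions was turned into a percentile within its own list, with 100 the strongest. A placed region was called higher in pupa when both pupa percentiles exceeded both larva percentiles. Of 5438 placed kept regions, 2170 (39.9%) were higher and 1004 (18.5%) were lower in pupae. The median percentile of placed regions was 41.2 and 51.2 in pupae 1 and 2, against 37.2 and 37.4 in larvae. Ranked among placed regions alone, 1436 were higher and 1721 lower, so the direction turned when the unplaced regions left the ranking. With a gap of at least 20 percentile points the counts were 695 and 139 in the shared ranking and 485 and 455 among placed regions alone. In the shared ranking, leaving out larva 2 gave 4112 higher and 2724 lower of 8740 placed kept regions. Leaving out larva 1 gave 3000 and 1846 of 6030. Leaving out pupa 1 gave 3179 and 1274 of 5577, and leaving out pupa 2 gave 2678 and 1645 of 5660. The rule is easier to meet when a stage has 1 sample, so these counts are not like for like with those from all 4 samples.

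Ranks of placed kept regions were closer within a stage than between stages. Spearman's rho over the 5438 regions was 0.840 between the pupae and 0.713 between the larvae, against 0.427 to 0.611 for the 4 pairs of a pupa and a larva. These correlations are across regions of shared libraries and are given as a description. Values in the shorter lists were often tied, with 3354 distinct fold enrichments among the 8590 kept regions in larva 2 and 5114 in pupa 2.

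**Figure D5:**
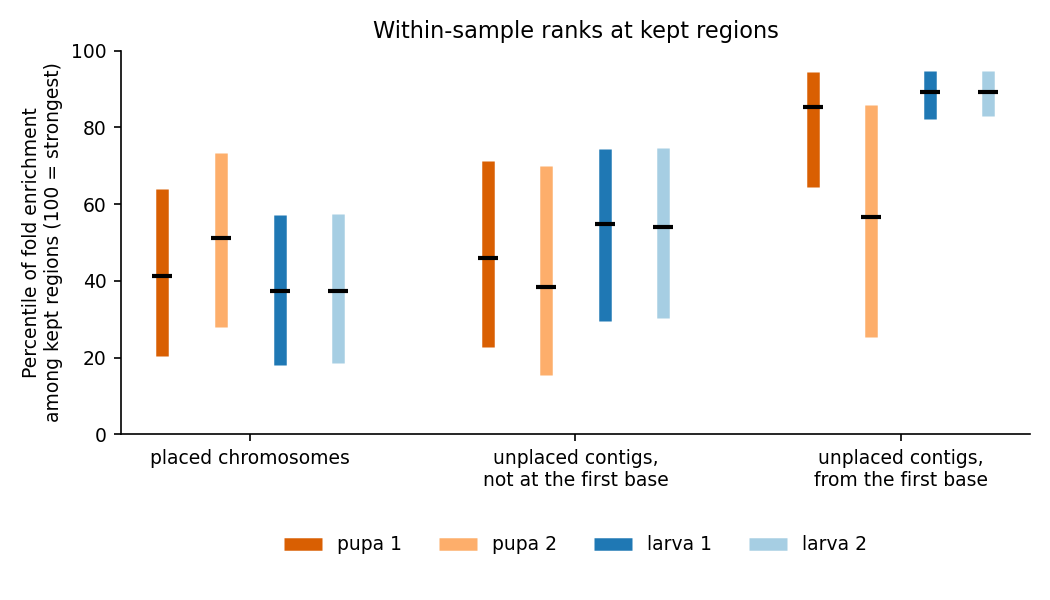
Percentile of fold enrichment within each sample (y axis, 100 the strongest) at kept regions on placed chromosomes, on unplaced contigs away from the first base and on unplaced contigs from the first base. Bars span the quartiles and black marks are medians. Pupa 2 stands apart at regions that start at the first base, with a median of 56.7 against 85.3 in pupa 1 and 89.2 and 89.4 in larvae.

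Kept peaks were wider in pupae on placed chromosomes. The median width of their intervals was 568 and 691 bp in pupae 1 and 2, against 418 and 370 bp in larvae, and the samples of the stages did not overlap. Intervals with more than 1 summit made up 31.6% and 40.4% in pupae, against 19.2% and 18.9% in larvae. On unplaced contigs the widths overlapped between the stages, at 619 and 559 bp in pupae, against 605 and 591 bp in larvae. Interval width follows the caller's threshold as well as the shape of the signal, and the part of list length in this difference was not tested.

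The 6 placed kept regions with the widest gap in favour of pupae lay on 6 chromosomes, and their fold enrichment ran from 9.14 to 12.5 in pupa 1 and 6.79 to 9.72 in pupa 2, against 2.43 to 3.64 in larva 1 and 2.80 to 3.55 in larva 2. NC_015769.1:6951160-6952012 had 9.14 and 6.79 in pupae, against 2.43 and 2.80 in larvae. Its percentile was 79.7 and 77.1 in pupae, against 1.43 and 4.72 in larvae. NC_015762.1:12814856-12815561 had 12.5 and 8.79 in pupae, against 3.64 and 3.55 in larvae. NC_015772.1:5870237-5870922 had 9.69 and 9.72 in pupae, against 2.97 and 3.18 in larvae, and was called in both egg lists and no adult list. The other 5 were called in all 8 lists, so these regions were open throughout development by the caller's threshold and differed between larva and pupa in rank.

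The 6 regions with the widest gap the other way had smaller gaps in the ranking shared with unplaced regions. Among placed regions alone, gaps of at least 20 points were about as frequent each way, with 485 higher and 455 lower in pupae. NC_015779.1:3238955-3239552 had fold enrichments of 2.42 and 1.81 in pupae, against 5.72 and 7.47 in larvae. NC_015768.1:1289616-1290140 had 3.84 and 3.33 in pupae, against 7.03 and 8.15 in larvae. NC_015764.1:6891538-6892825, the widest at 1288 bp, had 3.63 and 4.18 in pupae, against 9.31 and 12.0 in larvae. The smallest of the 6 gaps between the higher pupa and the lower larva percentile was 42.7 points, and 4 of the 6 were lost in the equal-number whole lists. NC_015765.1:6567833-6568363, with 2.98 and 2.68 in pupae, against 5.93 and 5.04 in larvae, was called in both egg lists and no adult list.

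At the other extreme stood kept regions that were strong in every library. NC_015769.1:9732855-9733834 had 14.3 and 13.5 in pupae, against 14.5 and 14.8 in larvae. NC_015762.1:14534901-14535696 had 13.6 and 13.3 in pupae, against 14.5 and 15.4 in larvae. NC_015779.1:3425844-3426619 had 12.6 and 13.5 in pupae, against 12.1 and 14.4 in larvae. At the last of these the fold values of the stages overlapped, and at the others both larvae lay slightly above both pupae. Fold values are not on a scale shared between libraries. In the shared ranking all 3 regions had higher percentiles in both pupae than in both larvae. The first had 95.5 and 99.2 in pupae, against 91.4 and 91.5 in larvae. All 3 regions were called in every egg and adult list.

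The unplaced contigs gave another picture. Of 8272 unplaced regions, 1454 (17.6%) were gained, 253 (3.06%) were lost and 3152 (38.1%) were kept, or 5.75 gained per lost region. With equal numbers from the whole lists the direction turned, with 264 gained (4.83%), 909 lost (16.6%) and 1804 kept of 5470 regions, or 0.290 gained per lost region. Those lists held more unplaced intervals in larvae, since 63.9% of intervals were placed in each larva, against 71.3% and 79.2% in pupae. With equal numbers of unplaced intervals, 4456 from each list, there were 667 gained and 543 lost regions, or 1.23 gained per lost region. In shorter lists the ratio was 0.794 at 500, 0.970 at 1000 and 0.992 at 1500 unplaced intervals, and above 1 at every longer length tried. Leaving out pupa 1 gave 2458 gained and 869 lost regions and a ratio of 2.83. Leaving out larva 2 gave 660 lost regions and a ratio of 2.32, and leaving out larva 1 gave 443 lost regions. Leaving out pupa 2 gave 1951 gained, 288 lost and 3773 kept regions and a ratio of 6.77.

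Many unplaced kept regions began at the first base of their contig. This held for 1665 of 3152 kept regions, against 36 of 253 lost and 1 of 1454 gained regions. Their fold enrichment had medians of 10.2 and 5.36 in pupae, against 13.5 and 13.8 in larvae, far above placed kept regions except in pupa 2. Over the 3152 unplaced kept regions, the ranks of pupa 2 had a Spearman's rho of 0.473 with larva 1 and 0.411 with larva 2, whereas pupa 1 had 0.819 and 0.758. The pupae had 0.766 with each other, and 0.843 over the 1665 regions at a first base, where pupa 1 had 0.788 with larva 1. Of the 613 unplaced regions that pupa 2 alone lacked, 192 began at a first base. The same held for 10 of the 32 that pupa 1 alone lacked, 16 of 465 for larva 2 and 1 of 76 for larva 1. Ranks at unplaced kept regions were higher in pupae at 537 (17.0%) and lower at 1579 (50.1%), and without pupa 2 at 1007 and 2163. Ranked among unplaced regions alone, 985 were higher and 1027 lower.

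Unplaced contigs were also split by how many regions they held, a number that counts the gained regions themselves, so the split is a description only. On the 39 contigs with at least 10 regions, 1177 were gained, 58 lost and 705 kept of 3787 regions, or 20.3 gained per lost region, and 218 and 148 were gained and lost by equal numbers. On the other contigs, 277 were gained, 195 lost and 2447 kept of 4485 regions, or 1.42 gained per lost region, and by equal numbers 46 were gained and 761 lost. Reads that align to several places were kept by the authors, and their part in the peaks of unplaced contigs was not tested.

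Among unplaced gained and lost regions, those with the highest weaker value of their stage included the following. NW_003565407.1:341984-342350 was gained, with 9.60 and 8.41 in pupae 1 and 2, and was called in both egg lists and no adult list. NW_003565794.1:4516-5272 was gained with 7.72 and 8.61 in pupae. NW_003569393.1:977-1413 was lost, with 8.90 and 8.36 in larvae 1 and 2, and NW_003567235.1:299-899 was lost with 7.55 and 8.22. These lost regions were stronger than the strongest lost region of the placed chromosomes. Kept regions were taken for the widest rank gap and not for strength. NW_003565557.1:1630171-1630782 had 10.4 and 8.29 in pupae, against 2.83 and 3.36 in larvae. NW_003570939.1:1-792 had 4.01 and 2.68 in pupae, against 13.6 and 15.3 in larvae, and begins at the first base.

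The step from larva to pupa can be placed beside the steps before and after it. In lists of 7875 placed intervals, pupa against larva had 1437 gained, 921 lost and 3577 kept regions, and the kept share of these 3 classes was 60.3%. Larva against egg had 453 gained, 376 lost and 3648 kept regions, a kept share of 81.5%. Adult against pupa had 1381 gained, 1559 lost and 4152 kept regions, a kept share of 58.5%. These shares leave out the mixed regions. The regions of a step numbered 13567 for larva against egg, 13409 for pupa against larva and 12577 for adult against pupa. Adult against pupa thus had the most kept regions out of the fewest, so the order of the shares changes once mixed regions are counted. The steps share the larva and pupa samples, so they are not independent, and the difference between them was not tested.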

How the data were processed

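ATAC-seq was run on whole bodies of *B. terrestris* workers. The 2 pupa and 2 larva samples were compared and the 2 egg and 2 adult samples were used as reference stages. The authors filtered reads with SOAPnuke, used Bowtie2 2.2.5 for alignment to Bter_1.0, keeping several alignments per read, and called peaks in each sample by itself in MACS2 2.2.5, with no model, a fixed shift and extension, and summit splitting. No control library and no removal of duplicate or mitochondrial reads is stated, and reads from repeats or of low complexity can therefore enter a peak.

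Each summit in the deposited lists carries its fold enrichment, relative to the background around it in its own library, and its −log10 p and −log10 q. They also hold a score that the authors' caller derives from the q-value and the summit offset, which were not used. None of these values was normalized between samples. Reads per sample and per peak are not in the lists, and the read totals that the study gives per sample were not used here, so no counting interval is given and the precision rests on the 2 samples a stage.

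Summits that share an interval were joined, and distinct intervals of the 4 lists that overlapped by at least 1 bp were merged. Classes were counted on contigs placed on the 18 chromosomes and on unplaced contigs. They were counted again with equal numbers of top intervals by −log10 p, where ties at the last place were broken at random with a fixed seed, a choice made after the data were seen. Fold enrichment at kept regions was ranked within each list, with tied values sharing their mean rank. The code was tested on simulated intervals. Regions given by position are the 10 gained and 10 lost placed regions with the highest weaker replicate, the 6 kept regions with the widest rank gap each way and the 3 kept regions with the highest lowest value, with 3, 3 and 2 each way on unplaced contigs, and a part of these is printed. Windows and the other named stretches were chosen after their values were seen. The members and lists were chosen with earlier results of these data known. No annotation or sequence of Bter_1.0 was used here, so genes of hormone signalling and motifs were not analysed. The authors' test of differential peaks, DESeq2 within DiffBind, needs reads and was not run. Alternatives were a stricter −log10 p, a longer overlap, other list lengths, other rankings and leaving out each sample. Python 3.11.15, numpy 2.4.6, pandas 2.3.3 and matplotlib 3.10.9 were used.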

Additional observations from a re-analysis of the deposited data

How the results depend on the processing

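Of 115 values under other settings, 59 stayed within the limit set for them, 54 moved and 2 turned direction, and the cause was not tested unless the setting itself holds it. Apart from the series of list lengths and with the main setting counted, gained regions outnumbered lost ones in 10 of 10 placed settings, from 1.56 to 202 per lost region. They did so in 9 of 11 unplaced settings, with ratios from 0.156 to 6.77. The settings with a longer overlap, a stricter −log10 p or a sample left out did not make the lists equal in length, so they are not independent of the longer pupa lists. The 2 unplaced exceptions were equal numbers from whole lists (0.290) and the top 5000 intervals (0.156). Both leave more unplaced intervals in the larva lists than in the pupa lists. In the series of list lengths, the unplaced ratio was also under 1 at 500 (0.794), 1000 (0.970) and 1500 (0.992) unplaced intervals.

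On placed chromosomes, a −log10 p of at least 10 gave 202 gained per lost region with 42 lost and 2569 kept regions. Equal numbers gave 2045 gained and 762 lost regions (2.68). Equal placed numbers gave 1437, 921 and 3577 gained, lost and kept regions (1.56). The top 5000 intervals gave 972, 162 and 1117 (6.0). On unplaced contigs, equal numbers gave 264, 909 and 1804, the top 5000 gave 132, 844 and 810, and equal unplaced numbers, a setting added after the data were seen, gave 667 gained and 543 lost regions (1.23). Without regions at a first base, 1487 unplaced regions were kept.

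For placed kept regions ranked higher and lower in pupae, a gap of 20 points gave 695 and 139, ranking over all intervals gave 3976 and 187, and ranking over placed kept regions alone gave 1436 and 1721. Ranking by −log10 p gave 2541 ranked higher and 644 ranked lower.

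Leaving out each sample in turn gave 13325 to 21134 gained, 484 to 1584 lost and 5577 to 8740 kept placed regions, a placed ratio of 8.41 to 43.0, and 2678 to 4112 placed kept regions ranked higher and 1274 to 2724 ranked lower in pupae. On unplaced contigs it gave 1532 to 2458 gained and 288 to 869 lost regions and a ratio of 2.32 to 6.77. The stage left with 1 sample then has no replicate.

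Same-numbered samples did not deviate together in their ranks (r = 0.0140 over 8590 kept regions). This check cannot exclude that same-numbered samples share an origin, so whether the numbers pair the samples remains unknown. With a replicate block the difference in list length was again 20623.5 intervals, with p = 0.5 in an exact permutation test within numbers, the smallest value it can give. The design of 2 against 2 samples and lists of unequal length limit all of these counts, and the reads behind each peak are not in the lists.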
